A study of Mus musculus with 6 samples.

Results

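The mRNA levels of 10 genes of the Nrf2 antioxidant pathway and the metallothioneins were compared between denervated and control gastrocnemius muscle of the mouse. The genes were Nfe2l2, which encodes the transcription factor Nrf2, its inhibitor Keap1, the Nrf2 targets Hmox1, Nqo1, Gclc, Gclm and Txnrd1, the thioredoxin-binding protein Txnip, and the metallothioneins Mt1 and Mt2. They were chosen by gene symbol, and every array probe annotated with one of these symbols was taken, which gave 15 of 25697 probes. Of these, 13 were kept for testing, meaning that 3 or more of the 6 arrays gave them a detection p-value below 0.05, and each of the 10 genes had at least 1 kept probe.

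The denervated samples were gastrocnemius muscles of the left leg, taken from adult male mice 14 days after a 2 mm piece of the sciatic nerve had been cut out. The control samples were gastrocnemius muscles of the right leg, whose nerve was left intact, so that the controls came from lesioned animals as well. There were 3 denervated and 3 control samples, each on 1 Illumina bead array, and no genetic change was described in either group. The sources used here give neither the number of mice nor whether replicate numbers 1 to 3 mark a mouse, so the p-values measure only the spread between these samples, which may be technical.

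Nrf2 is held in the cytoplasm by Keap1, which hands it to an E3 ubiquitin ligase for degradation. When oxidants or electrophiles modify Keap1, Nrf2 accumulates, pairs with a small Maf protein and binds antioxidant response elements in the promoters of genes for glutathione synthesis, thioredoxin recycling, quinone reduction and heme breakdown. Metallothioneins are small cysteine-rich proteins that bind zinc and copper and can scavenge oxidants, and their genes are switched on by the zinc-sensing factor Mtf1 through metal response elements and by glucocorticoids. Txnip binds and inhibits thioredoxin and restrains glucose uptake, and its transcription follows glucose through the Mondo factors.

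Promoter windows from RefSeq (assembly GRCm38.p6, 250 bases before to 50 after a transcription start) were found for 8 of the 10 genes. The windows of both metallothioneins are shown because these genes had the largest increases in the set and lie next to each other on chromosome 8, in the order Mt4, Mt3, Mt2, Mt1. The capitals mark the metal response element core, searched as TGCACNC or TGCGCNC on both strands.
Mt1 promoter, chr8:94178839-94179138, plus strand: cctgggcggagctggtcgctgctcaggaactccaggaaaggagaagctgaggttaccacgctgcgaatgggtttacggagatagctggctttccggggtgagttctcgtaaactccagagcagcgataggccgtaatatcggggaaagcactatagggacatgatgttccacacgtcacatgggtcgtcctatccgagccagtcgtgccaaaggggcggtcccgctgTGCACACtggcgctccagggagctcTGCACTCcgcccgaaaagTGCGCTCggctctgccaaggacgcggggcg
Mt2 promoter, chr8:94172368-94172667, plus strand: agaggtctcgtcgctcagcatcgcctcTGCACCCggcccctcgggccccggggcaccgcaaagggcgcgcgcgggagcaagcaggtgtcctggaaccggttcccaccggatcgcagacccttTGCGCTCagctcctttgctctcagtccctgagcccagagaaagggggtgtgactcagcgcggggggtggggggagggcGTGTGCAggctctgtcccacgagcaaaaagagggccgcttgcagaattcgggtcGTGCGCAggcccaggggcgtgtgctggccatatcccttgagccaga
The Mt1 window held 3 such cores and the Mt2 window 4. At least 1 core was present in 25.7% of all 32851 mouse windows, and 3 or more in 1.97%. The Mt2 window also held 1 antioxidant response element core, TGACTCAGC, left in lower case above. This core was searched as TGACNNNGC on both strands and was present in 12.4% of all windows. It was found once in the window of Nfe2l2 (TGACTCCGC), once in that of Gclm (TGACGGTGC) and once in 1 of the 3 Txnrd1 windows (TGACAAAGC), and had 0 matches in those of Keap1, Nqo1, Txnip and Mt1. The Gclm core overlapped 1 of the 3 metal response element cores of that window. The Txnip window held 1 metal response element core and 0 copies of the E-box CACGTG, which 7.15% of all windows contained. Only these exact letters were searched, so a site of the Mondo factors with other letters would have been missed. A match is a match of letters only, since binding was not measured. Sequence outside these windows was not searched, so 0 matches does not mean that a gene lacks the element.

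Between 11551 and 12785 probes were detected on an array, and the correlation between arrays of the same group over kept probes was 0.9878 to 0.9939. The denervated arrays were brighter before normalization, with a 95th percentile of the signal of 4000 to 4048, against 2896 to 3022 on the control arrays. All arrays lay on 1 chip, the denervated samples at positions D to F and the control samples at A to C, so that position and group cannot be told apart. The labelled tissue was checked with muscle fiber markers: all 10 on the array were kept, among them Acta1, Ckm and Mylpf, most of them near the upper end of the signal, where quantile normalization fixes the values and a change cannot be read. Values below are background-corrected, quantile-normalized log2 signals unless they are called deposited signals. A gene was called when its adjusted p was under 0.05 in limma with Benjamini-Hochberg adjustment over all kept probes.

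Of the 10 genes, 5 were higher in denervated muscle (Mt1, Mt2, Nfe2l2, Hmox1 and Gclm), 2 were lower (Txnip and Nqo1), and 3 were not called (Keap1, Gclc and Txnrd1). Over all 8740 genes measured, 22.2% were called higher and 21.6% lower. The denervated and control values did not overlap for 8 of the 10 genes, against 55% of all genes. Of the 13 kept probes, 7 were called, against 42.9% of all kept probes. The median log2 fold change of the 10 genes was 0.53, and that of all genes was -0.0033.

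**Figure D1:**
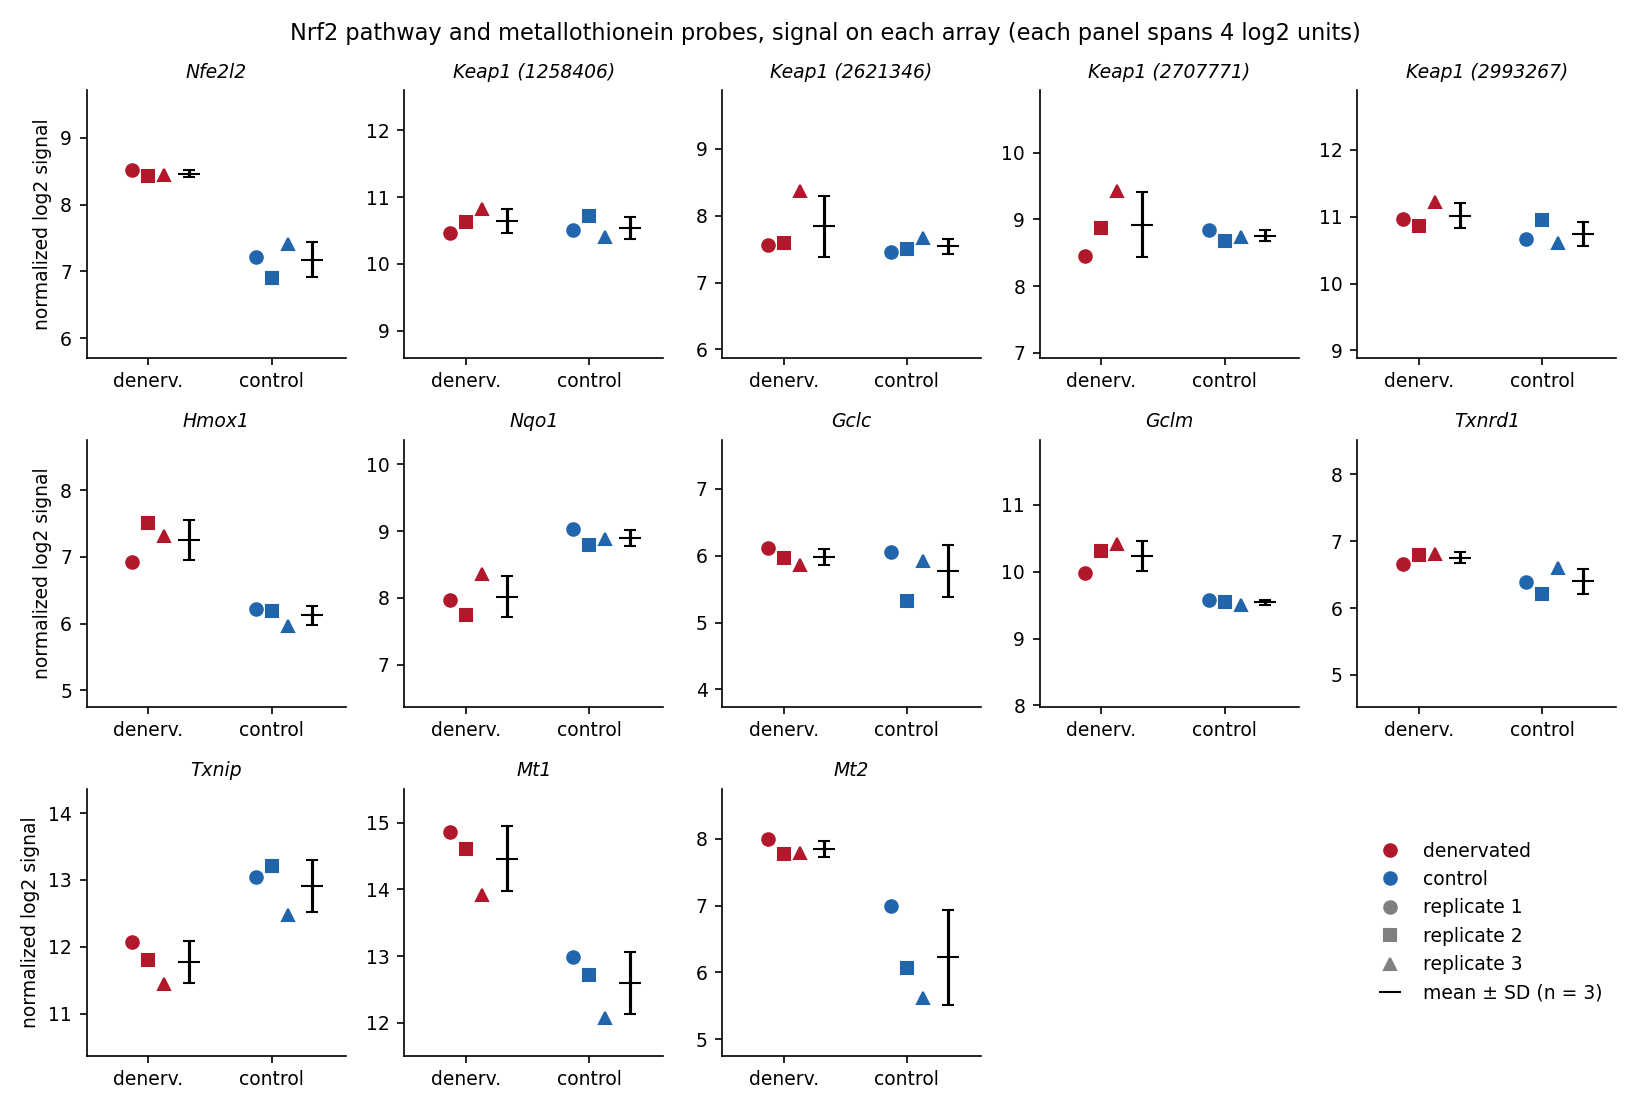
Normalized log2 signal of the 13 kept probes (y axis, each panel spanning 4 log2 units) in denervated and control muscle, with 1 symbol per array and the mean ± SD (n = 3) in black; numbers in titles are Illumina probe numbers. The groups are apart for Nfe2l2, Hmox1, Nqo1, Gclm, Txnrd1, Txnip, Mt1 and Mt2, and the values of Gclc and of the 4 Keap1 probes overlap.

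Nfe2l2, the gene for Nrf2 itself, was 2.45-fold higher in denervated muscle. Its kept probe (ILMN_1224128) read 8.52, 8.42 and 8.45 in denervated muscle, against 7.21, 6.89 and 7.41 in control muscle. The 3 denervated values lay within 0.10 of each other and above all control values. The log2 fold change was 1.29 ± 0.15 (SE, n = 3 per group, limma adjusted p = 0.000188). A further Nfe2l2 probe (ILMN_1214369) was detected on 0 of the 6 arrays, with deposited signals of 112, 120 and 132 in denervated muscle and 123, 107 and 105 in control muscle, and was not tested.

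Keap1, which targets Nrf2 for degradation, was read by 4 kept probes, and 0 of them were called. The brightest (ILMN_2993267) read 10.96, 10.86 and 11.22 in denervated muscle and 10.66, 10.95 and 10.61 in control muscle. Control replicate 2 lay above denervated replicate 2, so that the groups overlapped. The log2 fold changes of the 4 probes were 0.27, 0.10, 0.30 and 0.17, with limma adjusted p of 0.162, 0.6, 0.292 and 0.575. The 95% interval of the brightest probe ran from -0.06 to 0.60. Before normalization the deposited Keap1 signals were higher on the denervated arrays, with 2475, 2249 and 2856 against 1455, 1720 and 1433 on the control arrays for this probe. With each array scaled to a common median over all probes, which moved the median of all genes to 0.20, this probe (0.51, limma adjusted p = 0.0123) and ILMN_2621346 (0.53, limma adjusted p = 0.0488) were called higher. Under that scaling 3042 genes were called higher and 1116 lower, against 1937 and 1892 with quantile normalization.

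Among the Nrf2 targets, Hmox1, the inducible heme oxygenase that breaks heme down to biliverdin, iron and carbon monoxide, was 2.18-fold higher. It read 6.92, 7.51 and 7.31 in denervated muscle, against 6.22, 6.19 and 5.96 in control muscle. The groups did not overlap, and the signal was close to background in the control muscles, where the detection p-values were 0.0201 to 0.0238. The log2 fold change was 1.12 ± 0.17 (SE, n = 3 per group, limma adjusted p = 0.00079). Without background correction it was 0.51 (limma adjusted p = 0.000996).

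Hmox1 is strongly expressed by macrophages, and 11 of the 11 kept macrophage markers were higher in denervated muscle as well, with a median log2 fold change of 1.25. The summed normalized signal of these markers was 9094 to 11351 in denervated muscle and 3948 to 4340 in control muscle. C1qb, a chain of complement C1q, was higher by 1.62 ± 0.24 and Adgre1, a macrophage surface receptor, by 1.26 ± 0.15 (log2, SE, limma adjusted p = 0.000911 and 0.000267). A further pair of markers, Fcer1g and Marco, was on the array but not kept. The part of macrophages in the Hmox1 result was not tested. In such bulk tissue, more cells of a type and more RNA per cell cannot be told apart, nor can fewer cells and less RNA per cell.

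Gclm, the regulatory subunit of glutamate-cysteine ligase, which makes the first and limiting step of glutathione synthesis, was 1.62-fold higher. It read 9.99, 10.32 and 10.41 in denervated muscle, against 9.58, 9.55 and 9.50 in control muscle. The control values spanned less than 0.10 and all lay below the lowest denervated value. The log2 fold change was 0.69 ± 0.14 (SE, n = 3 per group, limma adjusted p = 0.00351). Gclc, the catalytic subunit of the same enzyme, read 6.11, 5.97 and 5.87 in denervated muscle and 6.06, 5.32 and 5.92 in control muscle. These values overlapped, and Gclc was above background on 3 of 3 denervated and 2 of 3 control arrays. Its log2 fold change was 0.21 ± 0.19 (95% interval -0.22 to 0.65, limma adjusted p = 0.396). The difference between the changes of both subunits was not tested.

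Txnrd1, the cytosolic thioredoxin reductase that keeps thioredoxin reduced, read 6.65, 6.80 and 6.81 in denervated muscle, against 6.39, 6.21 and 6.59 in control muscle. The groups did not overlap, but denervated replicate 1 and control replicate 3 were close, and the log2 fold change of 0.36 ± 0.13 was not called (SE, n = 3 per group, limma adjusted p = 0.0573). It was called under 4 of the 17 alternatives fitted per probe, among them the common median over all probes (0.55, limma adjusted p = 0.00962).

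Nqo1, the quinone reductase often used as a reporter of Nrf2 activity, was 1.85-fold lower in denervated muscle. It read 7.96, 7.74 and 8.35 in denervated muscle, against 9.03, 8.80 and 8.88 in control muscle. The groups did not overlap after normalization, and the log2 fold change was -0.88 ± 0.17 (SE, n = 3 per group, limma adjusted p = 0.00294). The deposited signals of this probe (ILMN_2726371) did overlap, at 413, 355 and 512 in denervated muscle, against 539, 465 and 504 in control muscle. Under the common median over all probes it was still lower, by a log2 fold change of -0.62 (limma adjusted p = 0.00783). A further Nqo1 probe (ILMN_2766386) was detected on 0 of the 6 arrays. Endothelial markers were lower in the same muscles (6 of 7 kept, 0 higher, median -0.52, summed signal 8454 to 9169 in denervated and 10780 to 14182 in control muscle, Kdr not kept), and so were smooth muscle markers (4 of 5 kept, 0 higher, median -0.71, summed signal 6486 to 9580 in denervated and 10447 to 15101 in control muscle, Cnn1 not kept). Of 3 kept adipocyte markers, 1 was lower and 0 higher, with a median of -0.99 (Plin1, Fabp4 and Retn not kept). Their summed signal was 1043 to 2765 in denervated and 2181 to 3978 in control muscle. Of 3 kept Schwann cell markers, 2 were lower and 1 higher, with a median of -2.10 (S100b not kept). The higher one was Ngfr, at 3.62. Mbp, counted as lower by its brightest probe at -2.62, had other probes at -1.49 and 0.66. These were called lower and higher, so that Mbp has no single direction here. Pmp22 was lower on both of its probes (-2.10 and -1.66). Other lists did not fall: of 8 kept fibroblast markers, 3 were higher and 1 lower, with a median of 0.02. Their summed signal was 38264 to 43617 in denervated and 36324 to 41546 in control muscle. The macrophage markers were higher, 11 of 11 kept, as given above. The part of any of these cell types in the Nqo1 result was not tested.

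Txnip, the inhibitor of thioredoxin, was 2.20-fold lower in denervated muscle. It read 12.07, 11.80 and 11.44 in denervated muscle, against 13.05, 13.21 and 12.47 in control muscle. The highest denervated value lay below the lowest control value, and replicate 3 was the lowest of its group in both. The log2 fold change was -1.14 ± 0.22 (SE, n = 3 per group, limma adjusted p = 0.00344). The deposited signals just overlapped, with 5077, 4226 and 3306 in denervated muscle, against 7163, 7838 and 5037 in control muscle. Of its relatives and regulators, 4 genes were kept and 0 were called, with log2 fold changes of -0.72 for the alpha-arrestin Arrdc2, 0.16 for the alpha-arrestin Arrdc4, -0.37 for the glucose-responsive factor Mlxipl and 0.14 for its partner Mlx (limma adjusted p of 0.396, 0.364, 0.148 and 0.392). Arrdc2 spread widely within each group, with 9.63, 8.92 and 7.43 in denervated muscle, against 10.43, 9.54 and 8.16 in control muscle. Without control replicate 1, 1 of these 4 genes was called lower. Arrdc1 and the Mondo factor Mlxip were on the array but not kept, so their levels were not compared.

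**Figure D2:**
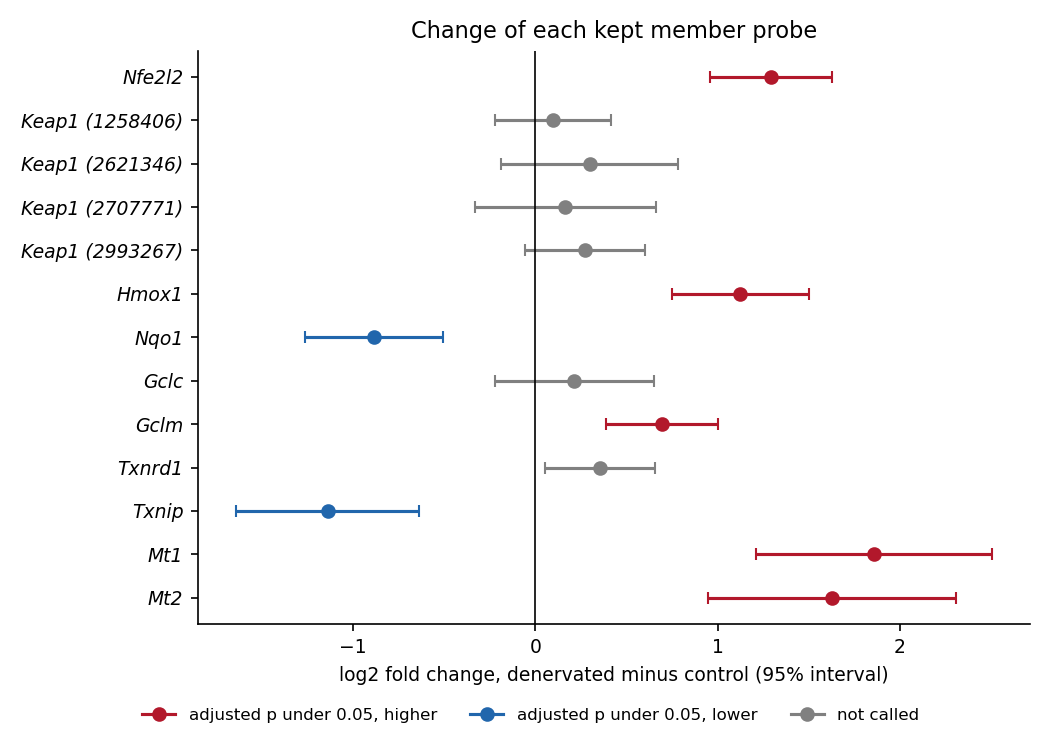
Log2 fold change of the 13 kept probes, denervated minus control (x axis), with the 95% interval of limma; red is called higher, blue called lower and grey not called. Nfe2l2, Hmox1, Gclm, Mt1 and Mt2 lie to the right of 0 and Nqo1 and Txnip to the left, between -1.14 for Txnip and 1.86 for Mt1.

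Both metallothioneins were higher in denervated muscle, Mt1 by 3.63-fold and Mt2 by 3.09-fold. Mt1 read 14.86, 14.60 and 13.91 in denervated muscle, against 12.99, 12.72 and 12.08 in control muscle. Before normalization, denervated arrays gave deposited signals of 32904, 27763 and 17474, and control arrays gave 6927, 5697 and 3906. In both groups replicate 3 was the lowest, and the lowest denervated signal exceeded the highest control signal. The log2 fold change of Mt1 was 1.86 ± 0.28 (95% interval 1.21 to 2.50, SE, n = 3 per group, limma adjusted p = 0.000975).

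Mt2 read 7.99, 7.77 and 7.80 in denervated muscle, against 6.996, 6.06 and 5.61 in control muscle. The denervated values were close together and the control values spread over more than 1 log2 unit, without overlap. Control replicate 3 was not above background (detection p-value 0.0627), while all other arrays were. The log2 fold change of Mt2 was 1.63 ± 0.30 (SE, n = 3 per group, limma adjusted p = 0.00261), and 0.81 without background correction (limma adjusted p = 0.000246).

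Mt1 and Mt2 are near-identical in sequence, and 1 probe read each, so that a probe may have taken up RNA of the other gene. The log2 signal of Mt1 minus that of Mt2 within an array averaged 6.60 ± 0.42 in denervated muscle and 6.37 ± 0.34 in control muscle (SD, n = 3 each), which is no ratio of RNA levels, since the probes differ. The difference between the groups was 0.23, and it ran from 0.00131 (without control replicate 1) to 0.50 (without denervated replicate 3) when 1 array was left out. An exact two-sided permutation test gave p = 0.5, but the smallest p that its 20 arrangements allow is 0.1, so it could not have passed 0.05 and does not show that both genes changed alike. Without background correction the difference was 1.03, at that smallest p. Of the other metallothioneins, Mt3 changed by 0.29 and was not called (limma adjusted p = 0.121), and Mt4 was not kept.

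**Figure D3:**
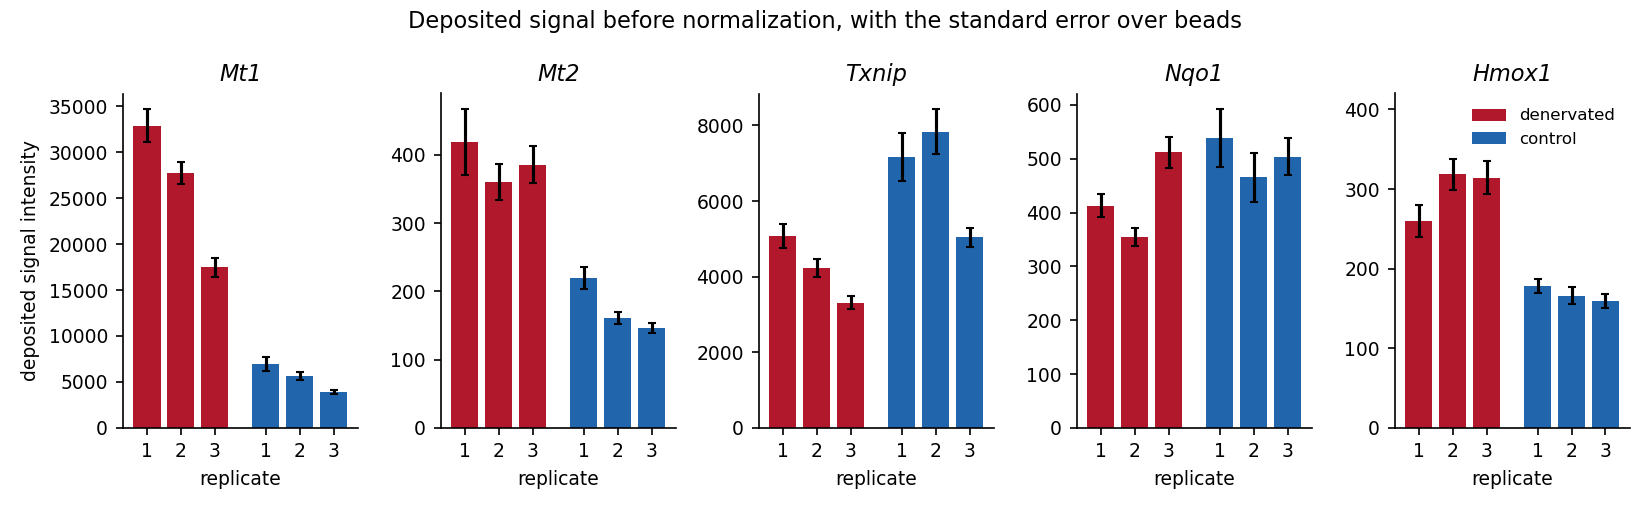
Deposited signal intensity before normalization (y axis from 0, a separate scale for each gene) on the 3 denervated and 3 control arrays, with the standard error over beads. The Mt1, Mt2 and Hmox1 bars of the denervated arrays all exceed the control bars, and the Txnip and Nqo1 bars overlap between groups.

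Genes around these members were counted in the same fit. The counts of this and the following lists stand against 22.2% called higher and 21.6% called lower over all genes. No list was tested as a set, so a count near these shares sets no list apart. Of 10 kept partners and regulators of Nrf2, 5 were higher and 0 lower, with a median log2 fold change of 0.41. Without denervated replicate 2 or without control replicate 1, 3 were higher. Dpp3 (0.998 ± 0.12) and Sqstm1, the autophagy receptor p62 (0.83 ± 0.12), both bind Keap1. Nfe2l1, a relative of Nrf2 that controls proteasome genes, was higher by 0.60 ± 0.12, and Bach1, a heme-sensing repressor of Hmox1, by 0.50 ± 0.17 (log2, SE, limma adjusted p of 0.000298, 0.000674, 0.00345 and 0.0402 in the order given). Bach1 was above background on 2 of 3 control arrays. Rbx1, a subunit of the Keap1 ubiquitin ligase and the other gene called, had 1 probe higher by 0.44 and another lower, at -1.26, both called, so it has no single direction here. Cul3, the scaffold of that ligase, changed by -0.04 (limma adjusted p = 0.785).

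Of 20 other kept Nrf2 target enzymes, 6 were higher and 6 lower, with a median of 0.02. This balance depended on the scaling, since 7 were higher and 3 lower under the common median over all probes. Srxn1, which restores overoxidized peroxiredoxins, was higher by 1.10 ± 0.13, and its other 2 probes rose by 1.16 and 0.998. Txn1, the cytosolic thioredoxin, was higher by 1.76 ± 0.15 on its brightest probe, while its other probe stood at -0.10 and was not called. The glutathione transferases Mgst1 (-1.54 ± 0.14) and Gsta3 (-0.99 ± 0.24) were lower (limma adjusted p of 0.000215, 3.62e-05, 5.49e-05 and 0.00983 in the order given). Gsta3 has close relatives that its probe may also have read. Among the other transferases, Gsta4 was lower (-0.69), Gstm2 was higher on each of its probes (0.72, 0.87 and 0.84), and Gstm1 was not called (0.07). Gstp1 was not called on its brightest probe (0.07), while another probe was higher (0.63) and the last was not called (0.32).

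Of 16 kept genes of heme and iron handling, beside Hmox1, 1 was higher and 6 were lower, with a median of -0.22. The gene called higher was not called without denervated replicate 2, denervated replicate 3 or control replicate 1, and 4 were higher and 5 lower under the common median over all probes. The iron exporter Slc40a1 was lower, with a log2 fold change of -1.95 ± 0.15, as was Alas1, the first and limiting enzyme of heme synthesis in most tissues, with -1.17 ± 0.14. The transferrin receptor Tfrc was lower on both of its probes (-0.85 ± 0.15 and -1.01). Fech, which inserts iron into heme, was lower (-0.85 ± 0.14), while 1 of its other 2 probes was not called at -0.24 (limma adjusted p of the 4 genes 1.98e-05, 0.00021, 0.00238 and 0.0014). Hmox2, the constitutive heme oxygenase, changed by -0.08 and was not called. Red cell markers varied between denervated muscles, with a summed signal of 25143 to 71382, against 65719 to 71845 in control muscle, and 1 of 3 was lower and 0 higher. Their part in the change of the heme genes was not tested.

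Of 13 kept glutathione genes, beside Gclm and Gclc, 4 were higher and 2 lower, with a median of 0.12. Leaving out denervated replicate 3, or either of control replicates 1 and 3, gave 2 called higher. The glutaredoxins Glrx (-1.11 ± 0.10) and Glrx5 (-0.57 ± 0.11) were lower, and Gpx4, the peroxidase of lipid hydroperoxides, was higher by 0.52 ± 0.13 (limma adjusted p of 6.46e-05, 0.00395 and 0.0123). Glrx2 had probes at 0.59, -1.06 and 0.00, the first 2 called in opposite directions, so that this gene, counted as higher by its brightest probe, has no single direction here. Of 11 kept genes of the thioredoxin system, which shares Txn1, Srxn1 and Prdx1 with the Nrf2 targets, 4 were higher and 2 lower, with a median of 0.22. The number called lower was 0 without denervated replicate 2, 1 when any other array was left out, and 0 under the common median over all probes, where 6 were higher. Txnrd3, a relative of Txnrd1, was higher by 0.51 ± 0.11 and the mitochondrial peroxiredoxin Prdx3 was lower, at -0.41 ± 0.11 (limma adjusted p of 0.00576 and 0.0183).

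Of 14 kept genes of metallothionein and zinc handling, beside Mt1 and Mt2, 4 were higher and 1 lower, with a median of 0.29. Under the common median over all probes 7 were higher. The zinc importer Slc39a6 (0.71 ± 0.19), the Golgi zinc transporter Slc30a7 (0.60 ± 0.15) and Slc39a11 (0.59 ± 0.12) were higher, and Slc30a9 was lower (-0.59 ± 0.12), with limma adjusted p of 0.0164, 0.0116, 0.00413 and 0.00462. Slc30a7 was above background on 1 of 3 control arrays. Mtf1, the factor that binds metal response elements, had 1 probe at 0.03 that was not called and another that was higher by 0.60 (limma adjusted p of 0.892 and 0.012).

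**Figure D4:**
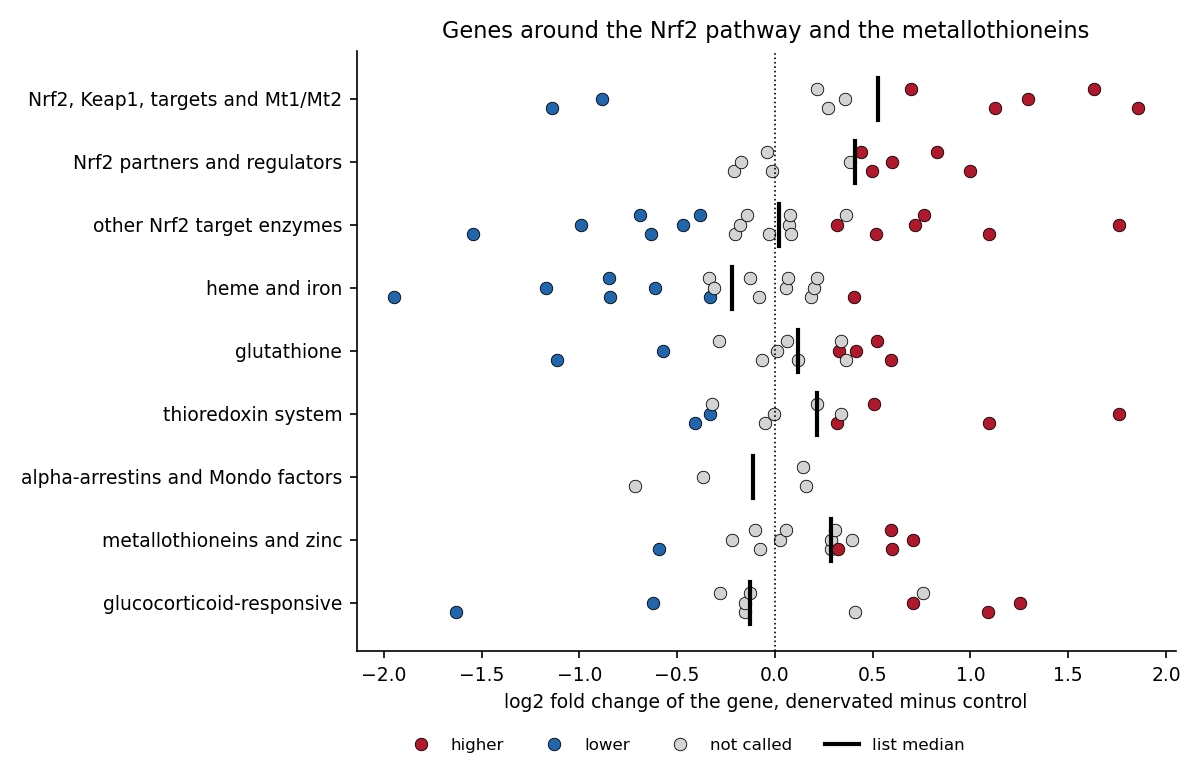
Log2 fold change of each kept gene, denervated minus control (x axis), for the 10 genes and 8 lists around them, with red called higher, blue called lower, grey not called and a black bar at the list median. The medians run from -0.22 for heme and iron to 0.53 for the 10 genes.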

How the data were processed

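RNA was labelled with biotin and hybridized to Illumina MouseRef-8 arrays, which the authors read in GenomeStudio. The deposited table held, per probe and array, a linear signal intensity averaged over beads, neither background-subtracted nor normalized, its standard error, the bead counts (14 to 64 for the probes described), and a detection p-value against negative controls, all deposited by the authors. Another deposited table held quantile-normalized intensity and served as an alternative. 0 columns of sample values were left out.

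Intensities were background-corrected from the detection p-values (normexp, offset 16), quantile-normalized and log2-transformed, as neqc does (limma 3.58.1, R 4.3.3). This understates changes of dim probes. Probes detected (p under 0.05) on at least 3 arrays were kept (12546), fitted with lmFit and eBayes and adjusted by Benjamini-Hochberg. A gene was represented by its brightest kept probe. Platform annotation gave 1 symbol for 23978 probes and none for 1719. The bead standard error was 3.75 to 11.5% of the signal. The number of arrays limits the precision. Scripts were tested on simulated data.

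The genes and lists were chosen with earlier results of these data known. Every member was named, and per list up to 4 called genes with the largest changes without overlap. Other list genes named were chosen after their values were seen. Alternatives covered background, offset, scaling, filters, replicate block, test and leaving out each array.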

Additional observations from a re-analysis of the deposited data

How the results depend on the processing

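Nfe2l2, Hmox1, Nqo1, Gclm and Mt1 kept their direction and their call in all 17 alternatives. With Student's t-test per probe, Benjamini-Hochberg adjusted, Txnip (adjusted p = 0.0505) and Mt2 (adjusted p = 0.0509) were no longer called, so that 1 of the 10 genes was called lower. Scaling to a common median over all probes gave 3042 genes higher and 1116 lower over the whole array, with a median log2 fold change of 0.20. Txnrd1 was called under that scaling, with detection on all 6 arrays, with a detection p under 0.01 and without control replicate 3, and 2 Keap1 probes were called under that scaling. With kept probes averaged per gene, 6 of the 10 genes were called higher and 2 lower, a count that does not name the further gene. Leaving out 1 array at a time, the log2 fold change of Gclc ran from -0.00814 to 0.373 (below 0 without control replicate 2) and that of Keap1 probe ILMN_2707771 from -0.0872 to 0.396 (below 0 without denervated replicate 3). The cause was not tested. Mt2 had no value with detection on all 6 arrays, nor had Gclc, which also had none with a detection p under 0.01. Without background correction, dim probes changed less: Nfe2l2 by 0.82, Hmox1 by 0.51 and Mt2 by 0.81.

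With the replicate number as a block, 1911 genes were called higher and 1883 lower, and 5 of the 10 genes were higher and 2 lower. With the block, 1 of the 4 alpha-arrestin and Mondo genes was called lower, 2 glutathione genes higher and 1 thioredoxin gene lower. With the t-test 2 glutathione and 2 zinc genes were higher, and with kept probes averaged per gene 4 partners of Nrf2 were higher and 1 lower. Deviations of same-numbered samples correlated at -0.0167, 0.161 and 0.164. These values were not set against those of differently numbered samples, so they cannot decide whether the numbers mark a mouse. The samples were treated as unpaired because the sources do not say what the numbers mark. Signal over background limits Hmox1, Gclc, Txnrd1 and Mt2 most.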

Other observations

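Glucocorticoids raise metallothionein transcription in many tissues, so genes known to respond to them were counted as well. Of 11 kept, 3 were higher and 2 lower in denervated muscle, with a median log2 fold change of -0.13. Over all genes, 22.2% were called higher and 21.6% lower. Fkbp5, a chaperone of the glucocorticoid receptor and a common marker of its activity, was lower, at -1.63 ± 0.26. Errfi1, an inhibitor of epidermal growth factor receptor signalling, was higher by 1.26 ± 0.21, the transcription factor Cebpb by 1.09 ± 0.20 and the kinase Sgk1 by 0.70 ± 0.22 (log2, SE, n = 3 per group, limma adjusted p of 0.00127, 0.00156, 0.00266 and 0.0323 in the order given). Dusp1 was the other gene called lower, at -0.62 ± 0.14 (limma adjusted p = 0.00607). Tsc22d3 was not called on its brightest probe, at 0.41, while its other probe was higher by 0.87 (limma adjusted p of 0.0848 and 0.0386). Nr3c1, the receptor itself, changed by -0.13 and was not called (limma adjusted p = 0.729). Under a common median over all probes 5 were higher and 2 lower. The part of glucocorticoids in the Mt1 and Mt2 results was not tested.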
